A study of Homo sapiens with 7 samples.

Results

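Keratins are the intermediate filament proteins of epithelial cells, and 10 of their genes were described here on arrays of a colon carcinoma cell line: KRT7, KRT8, KRT18, KRT19, KRT20, KRT23 and KRT80, which are known from simple epithelium or from several epithelia, and KRT13, KRT15 and KRT17, which are known from stratified epithelium. They were chosen by name, as the non-control probes whose gene name in the array files equals a member, which gave 14 probes of 50599 and 10 gene names of 36337. The cells were HCT116, a human colon carcinoma line labelled as diploid, in the H2B-GFP derivative, whose chromatin is labelled by a fluorescent histone, grown in medium with 10% serum at 5% CO2 and treated with 10 nM bafilomycin A1, an inhibitor of the vacuolar proton pump, for 30 h. RNA of 4 biological replicates was labelled with Cy3 from 100 ng each and hybridised to 1 array per replicate, on 1 slide with 1 scan time. Since 3 untreated samples were not analysed here, the values describe the treated cells and the spread between their replicates, and no effect of the drug was measured.

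A keratin filament is built from pairs of a type I (acidic) and a type II (basic) chain, and neither chain assembles alone. KRT8 with KRT18 is the basic pair of simple epithelium, KRT19 and KRT20 are further type I chains of the intestine, and KRT7 is a type II chain of ducts and glands. KRT13 and KRT15 belong to the suprabasal and basal layers of stratified epithelia, KRT17 to skin appendages and injured epithelium.

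The type II genes KRT7, KRT8 and KRT80, with the type I gene KRT18 beside KRT8, had their probes on chromosome 12, and the 6 remaining type I genes had theirs on chromosome 17. Coordinates are those of GRCh37, as in the files, which do not say whether a probe lies in an exon, a UTR or an intron. Of the 10 genes, 7 had 1 probe, KRT18 and KRT23 had 2 each and KRT8 had 3. Every probe is 60 bases long. The probes that define what KRT8 and KRT18 mean on this array are shown because the level of KRT8 turned on them, in lower case throughout, 5′ to 3′.
KRT8 A_24_P67395, chr12:53294461-53294995, minus strand: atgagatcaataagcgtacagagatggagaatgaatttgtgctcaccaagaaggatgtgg
KRT8 A_33_P3372368, chr12:53343241-53343300, minus strand, first 30 bases: gctcccggattttgctctccagcctccggt
KRT18 A_24_P42136, chr12:53345577-53345636, plus strand: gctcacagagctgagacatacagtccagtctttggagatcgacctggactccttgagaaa
KRT18 A_32_P151544, chr12:53346116-53346554, plus strand: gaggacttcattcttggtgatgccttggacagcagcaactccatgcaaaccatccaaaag
The coordinates of A_24_P67395 cover 535 bases and those of A_32_P151544 cover 439 bases, more than the length of either probe, so both bridge an intron. The third KRT8 probe, A_23_P14072, lies at chr12:53291026-53291085 on the minus strand. A_33_P3372368 carries the name KRT8, yet it lies 48246 bases from the next KRT8 probe and 2277 bases from the nearest KRT18 probe, on the strand opposite to KRT18.

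All values below are background-subtracted scanner signals, or their log2 after the median of the array was subtracted, called the normalized log2 level. A gene was called detected if the scanner software had flagged 1 or more of its probes as well above background on all 4 arrays. By this rule 9 of the 10 keratins were detected, against 52.5% of all gene names on the array. Of the 14 probes 13 were well above background on all 4 arrays, against 48.7% of all probes. The exception was the single KRT17 probe. No spot of a keratin probe was marked as an outlier and none was saturated. Levels of different probes depend on the probe and are not ranked against each other; what can be compared is 1 probe between arrays.

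**Figure D1:**
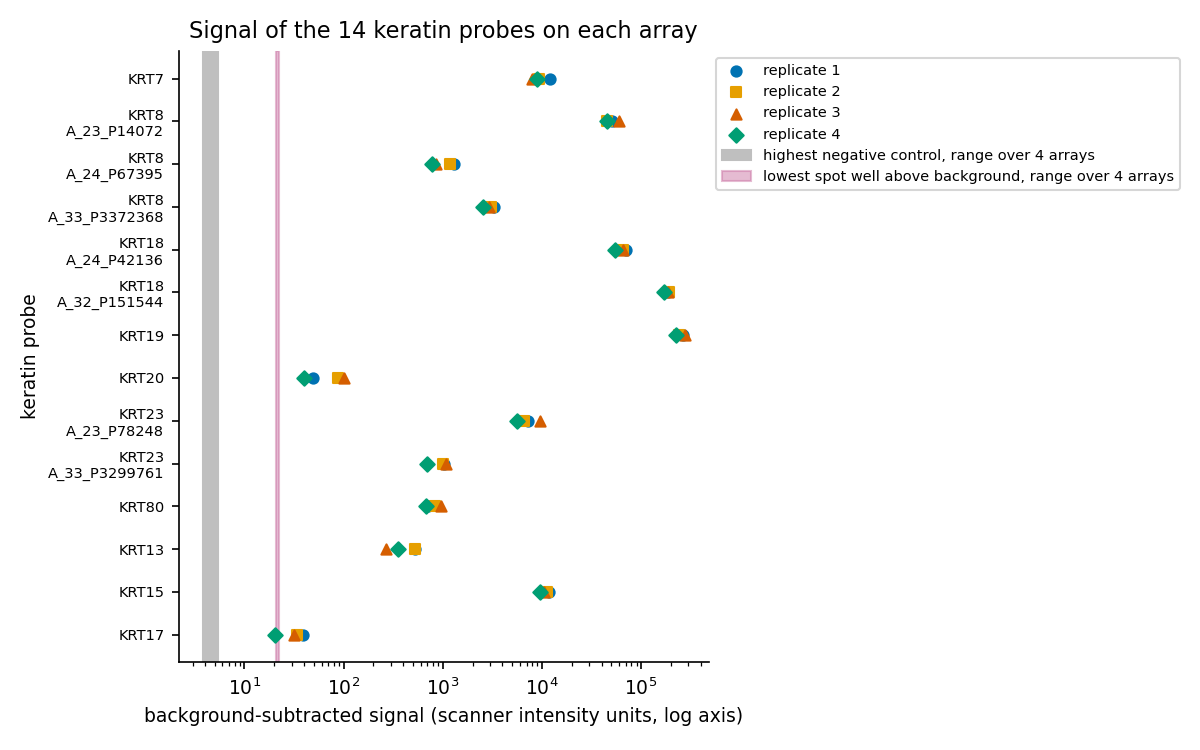
Background-subtracted signal (scanner intensity units, log axis) of the 14 keratin probes, with 1 point per replicate array. The grey band is the range of the highest negative control spot over the 4 arrays (3.81 to 5.45), the pink band that of the lowest spot well above background (20.8 to 22.3). The KRT17 probe on replicate 4, at 20.3, lies just below the pink band, and all points lie right of the grey band.

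The spread between replicates split the keratins. KRT18, KRT15, KRT8 and KRT19 were among the steadiest genes on the array in this scaling, with standard deviations of 0.05, 0.05, 0.06 and 0.08 on the log2 scale, which rank at the 1.07, 1.66, 2.30 and 5.80 percentile of 19083 detected genes. For KRT8 this is the value of 1 of 3 probes, and the SDs of the others were 0.18 and 0.27; after quantile normalization KRT15 (0.15) and KRT8 (0.13) lay above the median of all detected genes (0.11). KRT20 and KRT13 varied most, with 0.63 and 0.44, and KRT7, KRT23 and KRT80 lay between, with 0.19, 0.24 and 0.25. The median SD of the 9 detected keratins was 0.19, against 0.21 for all detected genes, and 5 of the 9 lay below that value. A span of more than 1.4-fold between the highest and the lowest array was seen for 4 of 9 keratins (KRT20, KRT13, KRT80 and KRT23), against 46.4% of all detected genes. These values describe 1 condition, so no test between groups was made. Without replicate 3, 1 of 9 keratins (KRT20) spanned more than 1.4-fold, against 21.6% of all detected genes, and the median SD was 0.12, against 0.15.

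**Figure D2:**
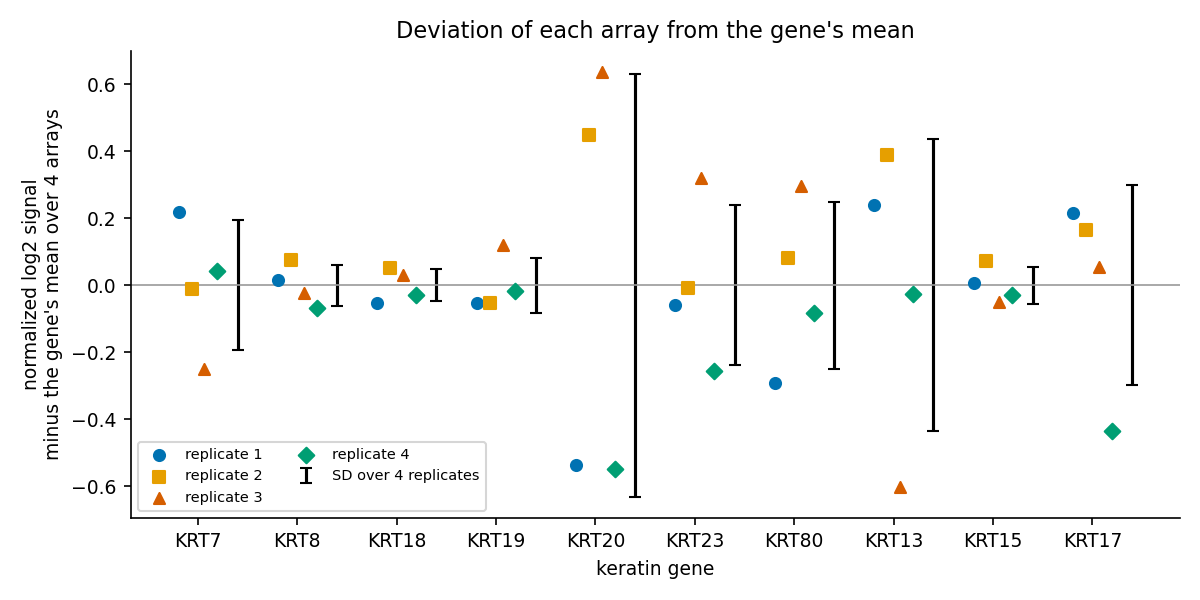
Deviation of each replicate array from the gene's mean normalized log2 level for the 10 keratins; the bar right of the points is the SD over 4 replicates on both sides of 0. KRT8, KRT18, KRT19 and KRT15 stay within about 0.12 of their mean, while KRT20 separates into replicates 2 and 3 above and replicates 1 and 4 below, and KRT13 is lowest on replicate 3.

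KRT18, the type I partner of KRT8, had normalized log2 levels of 10.55, 10.65, 10.63 and 10.57 on replicates 1 to 4 (10.60 ± 0.05, SD, n = 4). The highest array was thus 1.07-fold above the lowest. Its probes gave signals of 55015 to 71159 (A_24_P42136) and of 169503 to 193331 (A_32_P151544). Both were steady, with an SD of 0.05 for the former and 0.08 for the latter, and the software's own error model assigns 10% to signals of this size.

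KRT8 had gene levels of 5.41, 5.46, 5.37 and 5.32 (5.39 ± 0.06, SD, n = 4), which would place it beside KRT18 in steadiness. This gene level is the median of 3 probes, and on every array that median was the value of A_33_P3372368, the probe that lies close to KRT18. The other KRT8 probes were less steady and moved in opposite ways. A_23_P14072 had levels of 9.38, 9.35, 9.75 and 9.49 (9.49 ± 0.18, SD, n = 4). A_24_P67395 had levels of 4.08, 4.08, 3.59 and 3.63 (3.85 ± 0.27, SD, n = 4). Replicate 3 was the highest array of the former and the lowest of the latter, so the difference between both probes, which no centring of the arrays can change, was 5.30, 5.27, 6.15 and 5.86 on replicates 1 to 4 and spanned 1.85-fold. Without A_33_P3372368 the level of KRT8 was 6.67, which is the midpoint of the other probes (9.49 and 3.85) and the level of neither. Whether A_33_P3372368 reports KRT8 RNA was not tested.

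The partner chains could be set against each other on each array. KRT18 (A_32_P151544) minus KRT8 (A_23_P14072) was 1.87, 2.08, 1.65 and 1.89 on the log2 scale (SD 0.18), lowest on replicate 3. With the KRT8 probe A_24_P67395 in its place the difference was 7.17, 7.35, 7.80 and 7.75 (SD 0.31), highest on replicate 3. Replicate 4 lay close to replicate 3 there, and both lay above replicates 1 and 2. With A_33_P3372368, which set the gene level of KRT8, the difference was 5.84, 5.97, 6.03 and 6.06 (SD 0.10), highest on replicate 4. The place of replicate 3 in the KRT18 to KRT8 difference therefore depended on the KRT8 probe.

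**Figure D3:**
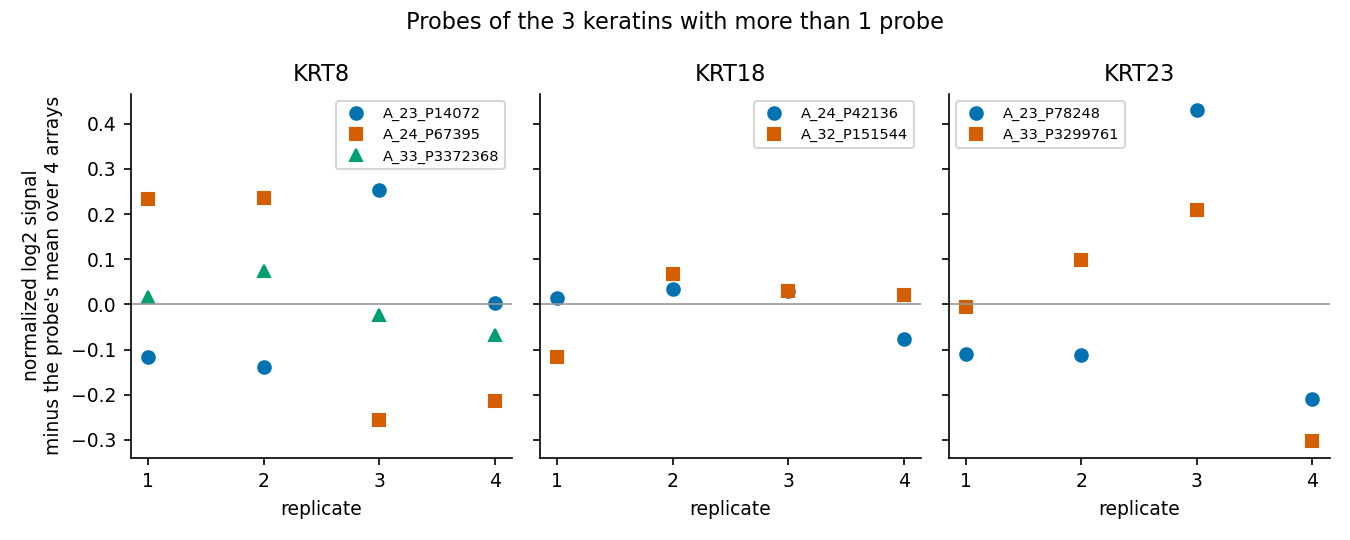
Deviation of each array from the probe's own mean normalized log2 signal for KRT8, KRT18 and KRT23, with 1 marker per probe. On replicate 3 the KRT8 probe A_23_P14072 is 0.25 above its mean and A_24_P67395 is at -0.26, whereas both KRT23 probes are at their highest there and both KRT18 probes are within 0.12 of their mean on every array.

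KRT19, the smallest type I chain, gave the signals 266714, 242870, 274397 and 225482 from 1 probe (chr17:39679918-39679977, minus strand). Its normalized log2 levels were 11.76, 11.76, 11.93 and 11.80 (11.81 ± 0.08, SD, n = 4). Replicate 3 lay above replicates 1, 2 and 4, whose SD was 0.02, but replicate 4 was the highest with the processed signal and replicate 3 (11.26) lay below replicates 1 and 2 (11.30 each) after quantile normalization. KRT19 minus KRT18 (A_32_P151544) was 0.51, 0.33, 0.54 and 0.41, with an SD of 0.10.

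KRT7 gave signals of 12176, 9434, 8009 and 8862 from 1 probe (chr12:52642590-52642649, plus strand). Its levels were 7.30, 7.07, 6.83 and 7.13 (7.08 ± 0.19, SD, n = 4), highest on replicate 1 and lowest on replicate 3. The span of 1.39-fold lay just inside the 1.4-fold limit, and it was 1.45-fold with the processed signal and 1.64-fold after quantile normalization. Replicate 3 was the lowest array of KRT7 in each of these settings.

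KRT20, which marks differentiated cells of the intestinal epithelium, was close to the detection limit. Its probe (chr17:39032532-39032591, minus strand) gave signals of 48.7, 87.6, 100.1 and 39.8, all of them well above background and at least 7.30 times the highest negative control of the same array. Its levels were -0.66, 0.32, 0.51 and -0.67 (-0.13 ± 0.63, SD, n = 4). Replicates 2 and 3 were thus high and replicates 1 and 4 low, with a gap between both pairs and a span of 2.27-fold that ranked the SD at the 92.5 percentile of detected genes. The pairs stayed apart with the processed signal, where the span was 2.16-fold, and after quantile normalization (0.12, 0.55, 0.70 and 0.12), which reduced the SD to 0.30. The error model gave 10.8% to 15.0% for these spots. In RNA from a whole culture, fewer cells that express a gene and less of its RNA per cell cannot be told apart.

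KRT23, a type I chain found in glandular and intestinal tumour cells, had gene levels of 5.15, 5.20, 5.53 and 4.95 (5.21 ± 0.24, SD, n = 4) from probes 2699 bases apart. The probe A_23_P78248 had levels of 6.56, 6.56, 7.10 and 6.46, and A_33_P3299761 had 3.74, 3.84, 3.95 and 3.44. Replicate 3 was the highest and replicate 4 the lowest array of both. Their difference had an SD of 0.19 between arrays, where the differences of the 3 pairs of KRT8 probes had SDs of 0.44, 0.22 and 0.22.

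KRT80, a type II chain whose filaments lie near the cell margin, gave signals of 707, 833, 968 and 673 (chr12:52563485-52563544, minus strand). Its levels were 3.20, 3.57, 3.79 and 3.41 (3.49 ± 0.25, SD, n = 4). Replicate 3 was again the highest array, and replicate 1 the lowest, under all normalizations tried.

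Among the keratins of stratified epithelium, KRT15, a type I chain of basal cells, gave signals of 11885, 11320, 10399 and 9538 (chr17:39670142-39670201, minus strand). Its levels were 7.27, 7.34, 7.21 and 7.23 (7.26 ± 0.05, SD, n = 4), a span of 1.09-fold. This was the steadiest keratin after KRT18, although quantile normalization, which lowered its value on replicate 3, raised the span to 1.25-fold.

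KRT13, the suprabasal type I chain of non-cornified epithelium, was lowest on replicate 3. It was the only one of the stratified-type keratins that was detected and spanned more than 1.4-fold. Its probe (chr17:39659920-39661309, minus strand), whose coordinates cover 1390 bases, gave signals of 523, 526, 266 and 358. The levels were 2.76, 2.91, 1.92 and 2.49 (2.52 ± 0.44, SD, n = 4), a span of 1.98-fold that fell to 1.33-fold without replicate 3. Replicate 3 was therefore low for KRT13 and KRT7 and high for KRT20, KRT23 and KRT80.

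KRT17, a type I chain of hair follicles and wounded epidermis, was the closest to background. Its signals were 38.8, 34.0, 31.5 and 20.3, and they were well above background on replicates 1, 2 and 3 but not on replicate 4. Its levels were -0.99, -1.04, -1.15 and -1.64 (-1.21 ± 0.30, SD, n = 4), and the error model gave 14.9% to 24.2%. The lowest of the signals was 3.73 times the highest negative control of its array. The KRT17 probe is the only keratin probe here that resembles a probe of another name: of 56 bases that can be aligned without a gap, 51 match a probe described in the files as keratin 17 pseudogene 1, with a shared run of 27 bases. Capitals mark the bases that differ.
KRT17 A_23_P96158, chr17:39776976-39777035, minus strand: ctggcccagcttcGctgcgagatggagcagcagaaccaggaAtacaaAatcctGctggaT
keratin 17 pseudogene 1 A_24_P882732, chr17:16745338-16745397, minus strand: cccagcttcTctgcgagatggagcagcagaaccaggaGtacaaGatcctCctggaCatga
The pseudogene probe gave 17.2, 32.8, 22.6 and 17.1 and was well above background on replicates 2 and 3. Whether either probe binds RNA of the other gene was not tested. The longest run that another keratin member's probe shared with a probe of another name was 16 bases, for KRT20.

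Replicate 3 was the highest array for 4 of the 9 detected keratins, against 48.5% of all detected genes, and the lowest for 3, against 23.2%. Replicate 2 was the highest for the 4 genes KRT8, KRT18, KRT13 and KRT15, against 25.3%, and the lowest for 0 of the 9, against 14.8%. Replicate 1 was the highest for KRT7 alone, against 20%, and the lowest for 3 of the 9, against 26.9%. Replicate 4 was the highest for 0 of the 9, against 6.18%, and the lowest for 3, against 35.1%. These counts depended on the scaling of the arrays: replicate 4 was the highest for 3 of 9 with the processed signal, against 17.8%, and for 4 of 9 with centring on the median over all probes, against 19.1%. No detected keratin had 1 array standing clearly apart from the others by Dixon's ratio (0 of 9, against 8.48% of all detected genes), and 1 of 9 had with the processed signal (KRT8, against 7.16%) and 1 of 9 with centring on the median over all probes (KRT23, against 6.53%). Replicate 3 also had the most spots marked as outliers, 2249 against 514 to 725 on the others.

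The base composition of the probes is given beside these deviations. The probes of KRT80, KRT23 (A_23_P78248) and KRT20 had G+C contents of 33.3%, 35.0% and 36.7%, the lowest of the 13 detected keratin probes, and replicate 3 was their highest array. Among the G+C-rich probes the direction was mixed. KRT7, KRT15 and KRT13, at 55%, 55% and 53.3%, were lowest on replicate 3. KRT19 and KRT8 A_23_P14072, both at 55%, and KRT23 A_33_P3299761, at 53.3%, were highest there. For KRT8 A_33_P3372368, at 61.7%, replicate 3 was neither the highest nor the lowest array. KRT8 A_24_P67395, at 41.7%, was also lowest on replicate 3. Across the 13 probes, Spearman's rho between G+C content and deviation was 0.44, -0.30, -0.45 and 0.57 on replicates 1 to 4, and across 24633 detected probes of the array it was 0.44, 0.10, -0.44 and 0.17. Probes share the array and its hybridisation and are not independent, and the part of base composition in the keratin values was not tested.

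**Figure D4:**
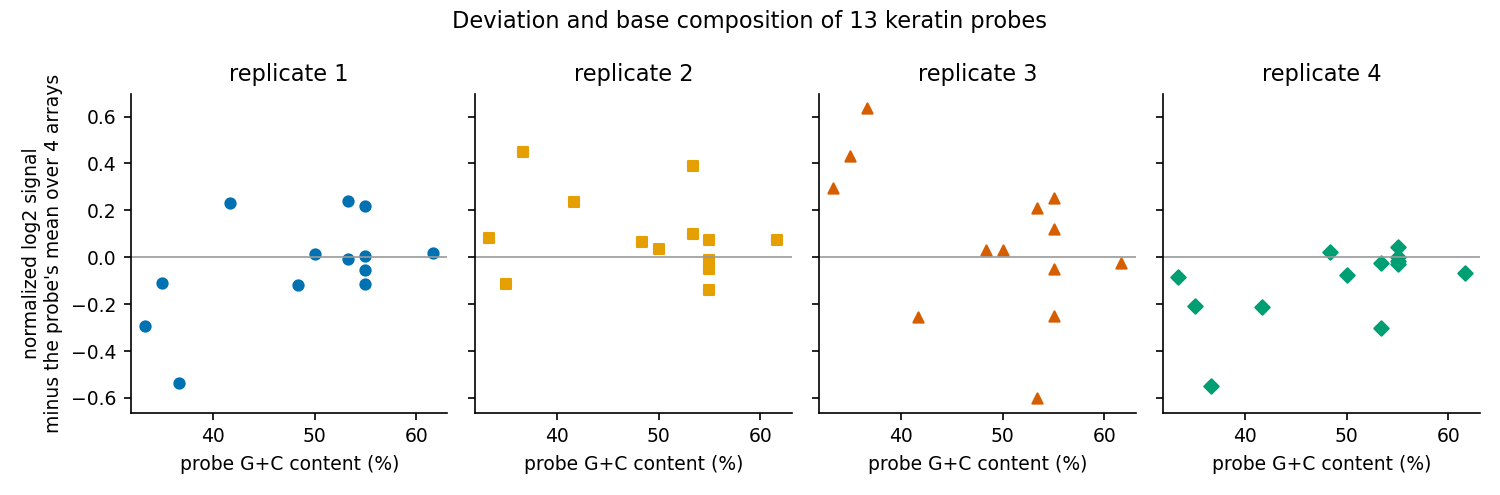
G+C content (%) of the 13 keratin probes detected on all 4 arrays against the deviation of 1 array from the probe's mean normalized log2 signal, with 1 panel per replicate. On replicate 3 the 3 probes with the lowest G+C content (33.3% to 36.7%) are the 3 highest points, while on replicate 1 the same probes lie below 0.

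Of 45 other keratin genes on the array, 18 were detected (40%, against 52.5% of all gene names), 7 were well above background on some arrays and 20 on none. The detected type I genes were KRT9, KRT10, KRT16, KRT31, KRT32, KRT33A, KRT34, KRT39 and KRT222, and the type II genes were KRT3, KRT4, KRT73, KRT74, KRT78, KRT81, KRT83, KRT85 and KRT86. Several of these are near-identical copies, such as the hair keratins KRT81, KRT83 and KRT86, whose probes may share RNA. Their median SD was 0.16, against 0.21 for all detected genes, and 5 of 18 spanned more than 1.4-fold, against 46.4%. KRT16, which is induced together with KRT17 in wounded skin, had levels of 0.31, 0.26, -0.56 and -0.30, lower on replicates 3 and 4 than on replicates 1 and 2. Its signals were low, at 47.6 to 95.5. KRT10, a suprabasal chain of skin, had 7.93 ± 0.16 (SD, n = 4) and KRT81 had 7.52 ± 0.27 (SD, n = 4).

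Keratins have many pseudogenes, and 6 on the array had a name made of KRT, a number, P and a further number. KRT19P2 (8.55 ± 0.18, SD, n = 4), KRT8P12 (7.75 ± 0.19) and KRT16P2 (-0.54 ± 0.34) were detected. KRT18P55, named after its values were seen, gave levels of 10.01, 10.16 and 9.89 on replicates 1, 2 and 3, all well above background, and its spot on replicate 4 was marked as an outlier. Whether these probes bind RNA of the parent genes KRT8, KRT16, KRT18 and KRT19 was not tested. KRT16P3 and KRT8P41 were well above background on no array. Near KRT17 lay probes of the pseudogene KRT42P, whose name has another form and which is not among the 6. Its probe A_33_P3341490 was well above background on all 4 arrays, and A_33_P3857239 was on no array.

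The keratin pattern was set against markers of epithelial type. Of 9 intestinal epithelium markers 8 were detected, against 52.5% of all gene names, among them EPCAM (8.84 ± 0.15, SD, n = 4), CDX2 (3.84 ± 0.09) and the 3 with the highest SD, CDX1 (0.75 ± 0.37), CDH1 (5.81 ± 0.31) and ELF3 (7.62 ± 0.24), while VIL1, the villus actin binder, was well above background on no array. The CDX1 level is the midpoint of 2 probes, of which 1 was well above background on all 4 arrays. Of 8 stratified epithelium markers 2 were detected, SPRR3 and, through 1 of 2 probes, SPRR1A. No probe of KRT14 was well above background on more than 2 arrays. TP63, the regulator of basal cells, KRT5, IVL, LOR and DSG3 were well above background on no array. KRT15 was thus detected without KRT5, the type II chain that it pairs with in basal cells. Of the markers of other cells, 1 of 7 of fibroblasts (COL1A1), 2 of 5 of endothelium (CDH5 and VWF) and 3 of 6 of blood (PTPRC, CD3E and ITGAM) were detected; the shares for endothelium (40%) and blood (50%) were near that of all gene names. PTPRC was detected through 1 of 5 probes. COL1A2, COL3A1, LUM, PDGFRB and THY1 of fibroblasts, KDR, PECAM1 and TEK of endothelium and HBB of red cells were well above background on no array.

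The order of the spreads depended on how the arrays were scaled. With the processed signal the median SD of the 9 keratins was 0.17, against 0.18 for all detected genes, and 4 of 9 keratins spanned more than 1.4-fold, against 39.1%. After quantile normalization it was 0.15, against 0.11, and 3 of 9 did (KRT13, KRT7 and KRT20), against 15.6%. KRT18 and KRT19 kept an SD below 0.1 in both settings, but with centring on the median over all probes their SDs were 0.11 and 0.16.

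**Figure D5:**
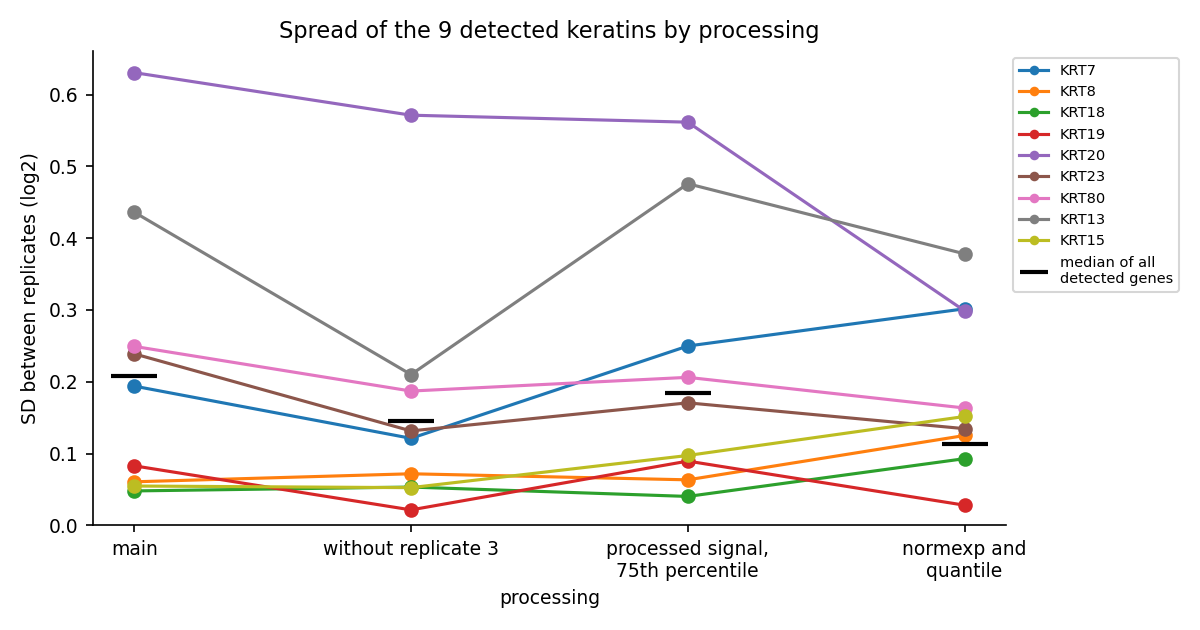
SD between replicates (log2) of the 9 detected keratins as described in the text, without replicate 3, with the processed signal, and after normexp correction and quantile normalization; black bars are the median over all detected genes. KRT20 falls from 0.63 to 0.30 after quantile normalization, KRT13 falls from 0.44 to 0.21 without replicate 3, and KRT18 and KRT19 stay below 0.1 in the 4 settings shown.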

How the data were processed

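The authors deposited 1 file per array as written by Agilent Feature Extraction 10.7.3.1: linear intensity with the local background removed and no scaling between arrays. Each deposited file also holds, for every spot, a p-value against background and quality flags. Controls and spots with an outlier flag were removed (514 to 2249 of 58717 per array), and spots of a probe were averaged. Signals above 0 were log2 transformed, and values of 0 or less were dropped. The median of the array over the non-control probes that remained (5.99 to 6.27) was subtracted. Each gene was given the median of its probes. A probe counted as well above background if over 50% of its remaining spots were flagged so. Between 55.6% and 60.4% of spots were well above background; the 4 arrays limit the precision of every SD.

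The spread was described by the SD, by a span above 1.4-fold and by Dixon's ratio, the gap of the array that stands apart over the range, which marks about 5% of genes by chance. The statistics were tested on simulated data. Named are all 10 keratins with every probe, the detected other keratins and pseudogenes, and of the lists (other intermediate filaments, desmosomes, cell type markers) the members on no array (up to 5) and the 3 detected ones with the highest SD; EPCAM, CDX2 and members in counts of 5 or fewer were named besides. The members and lists were chosen with earlier results of these data known. Alternatives were the processed signal minus the 75th percentile, normexp (offset 50, limma 3.58.1) with quantile normalization, other probe and detection rules, outliers kept, no detection filter and each replicate left out; added after seeing the data were centring on the median over all probes and KRT8 without 1 probe. No differential test was run, as the arrays hold 1 condition. Python 3.11.15, numpy 2.4.6, pandas 2.3.3, scipy 1.17.1, matplotlib 3.10.9 and R 4.3.3 were used. The files do not place probes in exons, and no GRCh37 annotation was used here. The sequence of 1 probe is not reported here.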

Additional observations from a re-analysis of the deposited data

Results flagged for a closer look

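One keratin probe had an array that stood apart. For KRT23 A_23_P78248, replicate 3 (7.10) lay above replicates 1, 2 and 4 (6.56, 6.56 and 6.46), and the gap took up 0.844 of the range of the 4 values. The other KRT23 probe, A_33_P3299761, was also highest on replicate 3 (3.95) but its array was not apart, nor was the gene level. Chance marks about 5% of groups of 4, and 8.48% of all detected genes were marked; none of the 9 detected keratins was at the level of the gene. Its cause was not tested.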

How the results depend on the processing

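The number of detected keratins was 9 of 10, against 52.5% of all gene names. It was 9 or 10 under the other detection rules and with any replicate left out. For those settings the share of all gene names is not given here, so their counts are not a result about keratins. The number spanning more than 1.4-fold was 4 of 9, against 46.4% of all detected genes, and 1 to 4 with a replicate left out. The 1 was without replicate 3, where the share of all detected genes was 21.6%. The median SD was 0.19, against 0.21 for all detected genes, and 0.12 to 0.24 with a replicate left out. It was lowest without replicate 3, where that of all detected genes was 0.15. No keratin had 1 array apart as described, but 1 did with the brightest probe (KRT23), 1 with the processed signal (KRT8, replicate 3 lowest) and 1 with centring on the median over all probes (KRT23). For the brightest probe the share of all detected genes is not given here. The causes were not tested. Centring on all probes raised every level, since the array medians were then 5.28, 5.11, 5.01 and 4.77. Of the values of single keratins, 26 of 110 SDs were counted as moved, and 4 of 50 levels moved by more than their SD. The 4 levels were those of KRT8, KRT18 and KRT23 with the brightest probe and of KRT8 without A_33_P3372368. Many of the other comparisons could hardly move, since 7 keratins had 1 probe and no keratin spot was an outlier. The low count of moved levels is therefore no measure of robustness. KRT20 kept replicates 2 and 3 above 1 and 4, and KRT13 and KRT7 kept replicate 3 lowest, in the main, processed, quantile and all-probe settings. No paired analysis was possible because the untreated samples that share replicate numbers were not analysed here. Signal over background limits KRT17 and KRT20, and levels of different probes cannot be ranked.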

Other observations

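Other intermediate filament genes and the genes that anchor keratins gave further values. Of 15 other intermediate filament genes 9 were detected (60%, against 52.5% of all gene names), and the 3 with the highest SD were VIM (2.98 ± 0.28, SD, n = 4), the mesenchymal filament protein, LMNB2 (4.36 ± 0.28) and PRPH (3.90 ± 0.22); NEFL and NEFM, of neurons, were above background nowhere by that flag. Of 21 desmosome and linker genes 16 were detected (76.2%), and the 3 with the highest SD were DST (1.57 ± 0.82), EPPK1 (3.07 ± 0.34) and PKP2 (3.76 ± 0.33), while the epidermal cadherins DSC1, DSG1, DSG3 and DSG4 were well above background on no array.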
